A study of Oryza sativa with 20 samples.

Results

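The transcripts of 7 stress-responsive NAC transcription factor genes were followed in rice shoots through a 10 min heat shock and 10 h of sampling. The genes were SNAC1, NAC6 (also named SNAC2), SNAC3, NAC5, NAC10, NAC4 and ONAC045, which make up 7 of the 37248 gene IDs in the expression table. They were chosen by gene ID, with earlier results of these data known. For an ID on several rows, the row of highest mean over the 10 groups was used. Heated shoots had been held under water at 42 °C for 10 min, and control shoots at 22 °C for the same time, in pots of wild-type Oryza sativa turned upside down at an age of 2 weeks. Both were sampled from the bath at 10 min, or after return to air at 30 °C, at 20 min, 1 h, 2 h and 10 h from the start of the bath. There were 10 groups of 2 libraries, with 3 shoots pooled in each library. Heated and control shoots were both inverted and immersed, so a comparison at the same time shares that handling. The return to air warmed the controls from 22 °C to 30 °C and cooled the heated shoots from 42 °C. What heat did and what the bath and the warming did to the controls therefore cannot be told apart. No group went without a bath, so the effect of the handling itself cannot be read.

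NAC proteins are plant transcription factors named after NAM, ATAF and CUC, and bind DNA through a conserved domain at the N terminus, while the C terminus activates or represses the target gene. The stress-responsive branch of the family is induced by drought, salt, cold, wounding or the hormone abscisic acid, and several of its rice members raise stress tolerance when overexpressed. SNAC1 is known for its role in guard cells and stomatal closure, NAC6 and NAC5 for responses to abscisic acid, salt and cold or drought, and SNAC3 for tolerance of heat, drought and oxidative stress. NAC10 is known from drought work in roots, ONAC045 from drought and salt tolerance, and NAC4 from the cell death that follows recognition of a pathogen.

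The unit was FPKM, the fragments of a transcript relative to its length and to all mapped fragments, with 1 value per group, so no SD stands beside any level below. A gene was called when the authors' deposited table gave it a q-value below 0.05. Sizes are log2 ratios of heated to control with 1 added to each FPKM value, so that low values look less changed than they were, or plain ratios of the FPKM values. The background was 24219 records, distinct sets of group values, whose mean over the 10 groups reached 1 FPKM. Of the 7 genes 6 had such a mean, NAC10 through its heated value at 2 h alone, and ONAC045, at a mean of 0.791 FPKM, did not. Depth per library is unknown. Of the IDs listed from background knowledge as tissue markers, all 4 of green tissue were detected, summing to between 13360 and 38050 FPKM in heated groups and between 17336 and 36124 FPKM in control groups. From 10 min to 10 h in controls OS01G0600900 fell from 11294 to 211 FPKM and OS09G0346500 from 9647 to 36.3 FPKM. Over that time OS11G0707000 rose from 3591 to 10201 FPKM, and OS12G0274700 stood at 11534 and 11692 FPKM. OS01G0600900 was called lower at 10 h in the authors' deposited table, with 106 FPKM in heated shoots. The 3 root IDs summed to between 7.29 and 36.7 FPKM in heated groups and between 5.56 and 20.4 FPKM in control groups, and 2 of them were at or near 0 in every group. The root ID left, OS02G0745100, stood at 36.7 FPKM in heated shoots and 20.4 FPKM in controls at 1 h, and at 25.6 FPKM in heated shoots and 6.1 FPKM in controls at 2 h, and the authors' deposited table called it higher at 1 h, 2 h and 10 h; its part in the results below was not tested. In whole shoots, a change in the share of a cell type and a change in RNA per cell cannot be told apart.

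The transcripts of 6 of the 7 genes rose after heat, at staggered times, and that of SNAC3 fell. In the authors' deposited table SNAC1 was called higher by the end of the bath, NAC5 from 20 min, NAC6, NAC4 and ONAC045 from 1 h, and NAC10 at 2 h. SNAC3 was called lower at 1 h and 2 h, and NAC4 was called lower at 20 min before it rose. At 10 h none of the 7 was called.

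Counted by time, 1 of the 7 genes was called at 10 min in the authors' deposited table, where 3.65% of the records compared were called, 1.49% higher. At 20 min 3 genes were called, 2 higher and 1 lower, beside 9.04% of records, 3.22% higher and 5.82% lower, in the authors' deposited table. At 1 h the count was 6, with 5 higher and 1 lower, beside 19.0% of records, 10.9% higher and 8.12% lower, in the authors' deposited table. At 2 h all 7 were called, 6 higher and 1 lower, beside 17.1% of records, 10.8% higher and 6.35% lower, in the authors' deposited table. The genes called higher included ONAC045 at 1 h and 2 h, which is not among the records, and NAC10 at 2 h, which is among them only through that value, so 4 genes called higher at each of these times are read against the shares. The count of 0 at 10 h stood beside 4.29% of records in the authors' deposited table, which holds no unadjusted p and no second test. The median log2 ratio over the 7 genes was 0.14 at the end of the bath and 0.10 at 20 min, reached 2.21 at 1 h and 1.33 at 2 h, and was -0.05 by 10 h, while over all records it lay between -0.065 and 0.02.

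**Figure D1:**
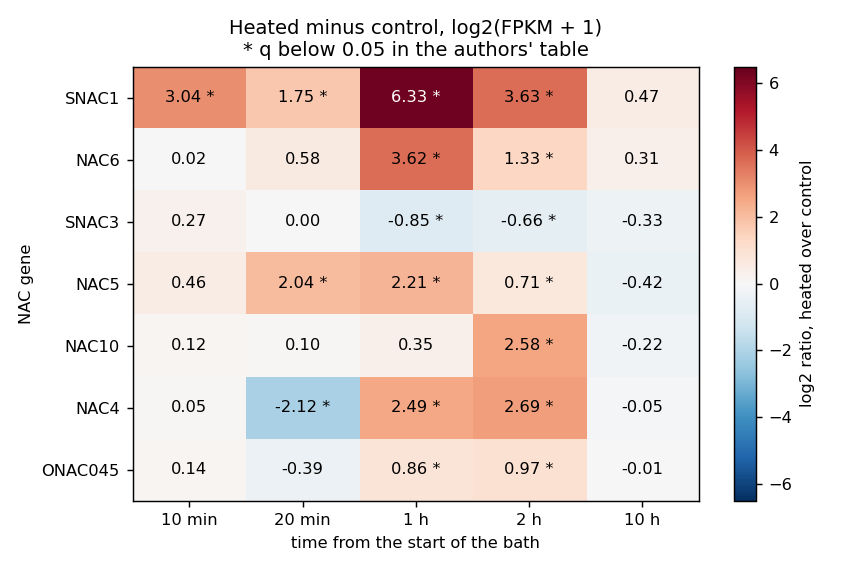
Log2 ratio of heated to control shoots on the log2(FPKM + 1) scale for each NAC gene (rows) at each time from the start of the bath (columns), with red for higher and blue for lower in heated shoots and a star where q was below 0.05 in the authors' deposited table. The deepest red is SNAC1 at 1 h, at 6.33, the blue cells with a star are SNAC3 at 1 h and 2 h and NAC4 at 20 min, and no cell has a star at 10 h.

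SNAC1 (OS03G0815100), the guard cell factor, gave the largest ratio of the 7 at 10 min, 1 h and 2 h. Heated shoots held 408 FPKM at 10 min, 738 FPKM at 20 min, 2464 FPKM at 1 h, 394 FPKM at 2 h and 46.0 FPKM at 10 h. In control shoots it was 48.9 FPKM at 10 min, 219 FPKM at 20 min, 29.7 FPKM at 1 h, 30.8 FPKM at 2 h and 33.0 FPKM at 10 h. Every heated value up to 2 h therefore lay above every control value, the raised control at 20 min included. Relative to controls SNAC1 rose 8.35 times at 10 min, 3.37 times at 20 min, 83.0 times at 1 h and 12.8 times at 2 h, each with a printed q of 0 in the authors' deposited table. The smaller ratio at 20 min went with the control value of that time, since the heated level was itself 1.81 times that at 10 min. At 1 h the log2 ratio of 6.33 ranked 72nd from the top among the 24219 records, and the heated level was above that of 99.7% of them. At 10 h the ratio was 1.39 with q = 0.25 in the authors' deposited table.

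NAC6 (OS01G0884300), induced by cold, salt and abscisic acid, was the most abundant of the 7 in every control group, but moved later than SNAC1. Heated shoots held 132 FPKM at 10 min, 348 FPKM at 20 min, 1250.44 FPKM at 1 h, 341 FPKM at 2 h and 132 FPKM at 10 h. Control shoots held 129.98 FPKM at 10 min, 232 FPKM at 20 min, 100.48 FPKM at 1 h, 135 FPKM at 2 h and 106 FPKM at 10 h. At the end of the bath heated and control shoots thus had nearly the same level, with a ratio of 1.01 and q = 0.98 in the authors' deposited table. At 20 min the ratio of 1.496 was not called, with q = 0.24 in the authors' deposited table. NAC6 rose 12.4 times at 1 h and 2.52 times at 2 h relative to controls, each with a printed q of 0 in the authors' deposited table. A second, lower row of this ID was not used here.

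NAC5 (OS11G0184900), linked to abscisic acid signalling and leaf senescence, peaked earliest among the rising genes in heated shoots. It stood at 24.0 FPKM at 10 min, 86.6 FPKM at 20 min, 77.9 FPKM at 1 h, 23.4 FPKM at 2 h and 8.95 FPKM at 10 h in heated shoots. In controls it stayed between 12.3 and 20.3 FPKM. Its 20 min and 1 h levels in heated shoots were alike, and that at 10 h lay below every control value. The ratio was 4.27 at 20 min and 4.86 at 1 h, each with a printed q of 0, and 1.68 at 2 h with q = 0.04, in the authors' deposited table. At 10 min it was 1.40 with q = 0.4, and at 10 h 0.726 with q = 0.34, in the authors' deposited table. A second gene ID stands on the row, OS11G0184800, so its values may include reads of an overlapping gene.

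NAC4 (OS01G0816100), the cell death factor, was the only one of the 7 called in both directions. Heated shoots had 3.61 FPKM at 10 min, 2.46 FPKM at 20 min, 19.8 FPKM at 1 h, 33.5 FPKM at 2 h and 0.92 FPKM at 10 h. Control shoots had 3.44 FPKM at 10 min, 14.1 FPKM at 20 min, 2.70 FPKM at 1 h, 4.33 FPKM at 2 h and 0.99 FPKM at 10 h. The controls were high at 20 min, and the heated shoots had no such peak at that time. NAC4 was 0.175 times the control at 20 min, a log2 ratio of -2.12 with a printed q of 0 in the authors' deposited table, and 0.72% of all records had a lower ratio. It was 7.32 times the control at 1 h and 7.73 times at 2 h, each with a printed q of 0 in the authors' deposited table. By 10 h both baths gave the lowest NAC4 values of the series.

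NAC10 (OS11G0126900), known from drought work in roots, was close to the lower limit of the table except at 1 point. It lay between 0.65 and 1.36 FPKM in heated shoots at 10 min, 20 min, 1 h and 10 h, and between 0.54 and 1.22 FPKM in all controls. At 2 h it reached 9.6 FPKM in heated shoots and stood at 0.77 FPKM in controls. This single called point was a ratio of 12.5 with a printed q of 0 in the authors' deposited table, and 2.58 on the log2 scale. Since NAC10 passed the filter through this value alone, its call there is not read against the background.

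ONAC045 (OS11G0127600), linked to drought and salt tolerance, was the lowest of the 7, at or below 1.96 FPKM in every group. Heated shoots had 0.51 FPKM at 10 min, 0.38 FPKM at 20 min, 1.81 FPKM at 1 h, 1.96 FPKM at 2 h and 0.5 FPKM at 10 h. Controls ranged from 0.37 FPKM at 10 min to 0.81 FPKM at 20 min. The heated values at 1 h and 2 h lay above all controls. The ratio was 3.29 at 1 h with q = 0.01 and 3.84 at 2 h with a printed q of 0, in the authors' deposited table, beside 8.12% and 6.73% of records called higher when no filter on low values was set. NAC10 and ONAC045 lie on the part of chromosome 11 that rice also carries as a near copy on chromosome 12, and how the authors assigned reads that fit both copies is not stated in any source used here.

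SNAC3 (OS01G0191300), the factor tied to heat and oxidative stress tolerance, fell modestly. Heated shoots had 9.61 FPKM at 10 min, 6.90 FPKM at 20 min, 4.14 FPKM at 1 h, 4.77 FPKM at 2 h and 6.73 FPKM at 10 h. The 5 control groups ranged from 6.88 to 8.74 FPKM. As a ratio of highest to lowest control, 1.27, this was the narrowest range of the 7 genes. The heated values at 1 h and 2 h lay below that range, and that at 10 min lay above it. SNAC3 was 0.502 times the control at 1 h with a printed q of 0, and 0.589 times at 2 h with q = 0.03, in the authors' deposited table. On the log2 scale these were -0.85 and -0.66, and 12.4% and 13.8% of all records had a lower ratio. At 10 min the ratio was 1.23 with q = 0.59 in the authors' deposited table.

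**Figure D2:**
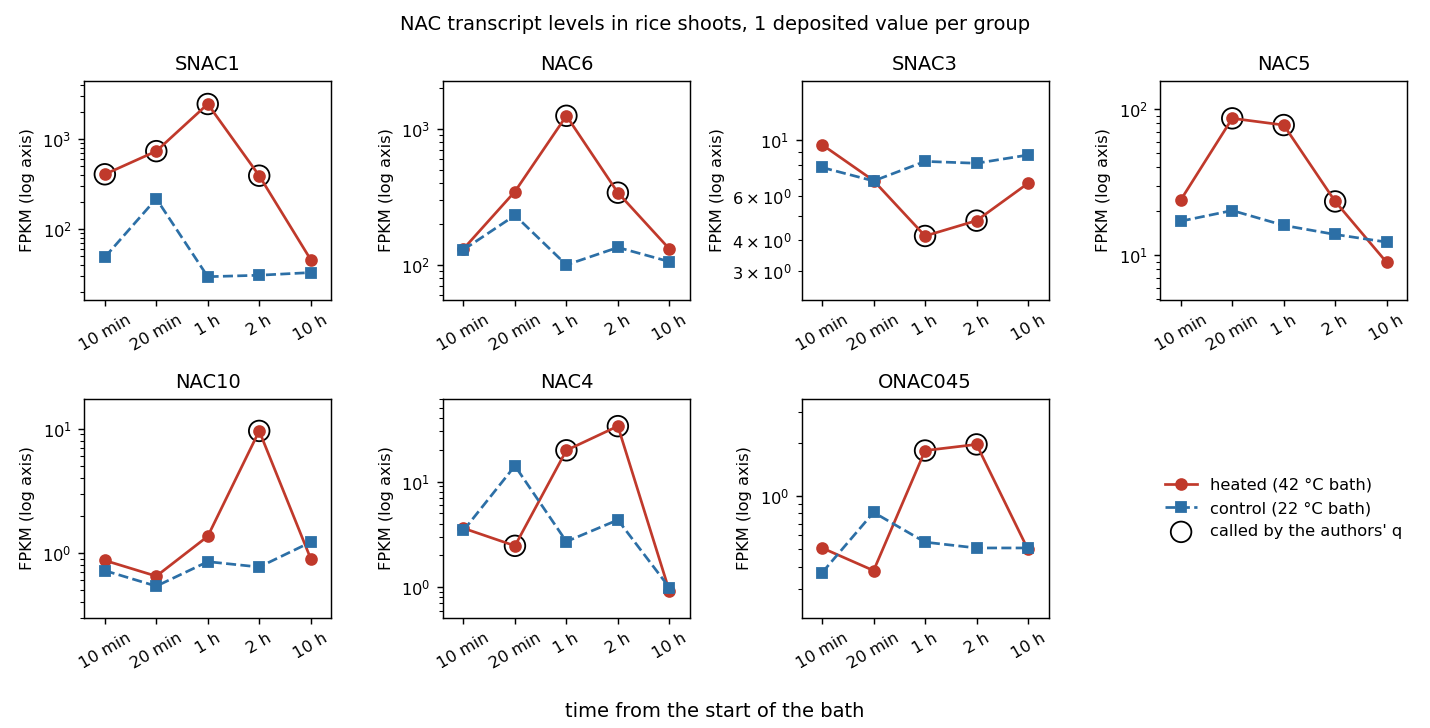
FPKM (log axis, its own range in each panel) of each NAC gene against the time from the start of the bath, with heated shoots in red circles, control shoots in blue squares and a ring where q was below 0.05 in the authors' deposited table. SNAC1 and NAC6 peak at 1 h in heated shoots, NAC5 at 20 min, NAC10, NAC4 and ONAC045 at 2 h, and the controls of SNAC1, NAC6 and NAC4 peak at 20 min.

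Set against all records, SNAC1 lay above the central 95% at every time up to 2 h. NAC6 lay above it at 1 h, NAC5 at 20 min, and NAC4 at 2 h, while NAC4 lay below it at 20 min. The upper edge of this range was a log2 ratio of 1.46 at the end of the bath and 1.72 at 20 min, then 3.03 at 1 h and 2.47 at 2 h, and 0.998 by 10 h. NAC10 at 2 h, with a ratio of 2.58, was above this edge too. It is among the records only through that heated value, so it is not read against them. NAC5 and NAC4 at 1 h, with ratios of 2.21 and 2.49, were inside the wide range of that time. ONAC045 and SNAC3 were inside the central 95% at every time, although the authors' deposited table called each of them at 1 h and 2 h. ONAC045 is not among the records, so it is not read against them. The 1 added to each FPKM value lowered its log2 ratios, to 0.86 at 1 h and 0.97 at 2 h. The authors' deposited table gave log2 fold changes of 1.71 and 1.93 for these times.

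**Figure D3:**
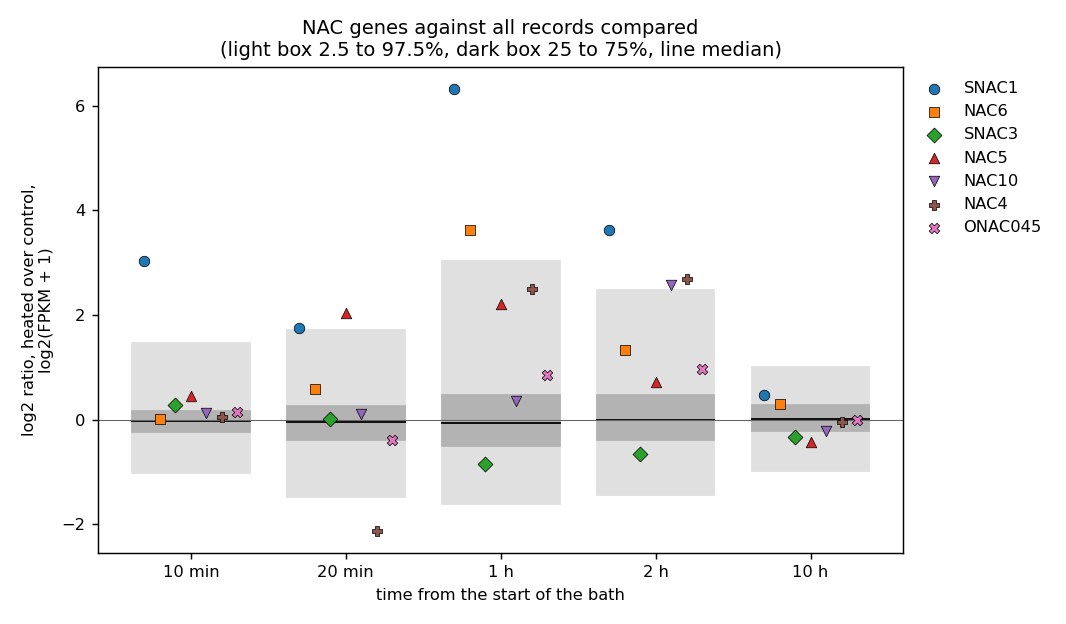
Log2 ratio of heated to control shoots, on the log2(FPKM + 1) scale, of the 7 NAC genes (symbols) at each time, over the spread of the 24219 records compared (light box, central 95%; dark box, central 50%; line, median). At 1 h SNAC1 at 6.33 and NAC6 at 3.62 lie above the light box, whose upper edge is at 3.03, and at 10 h all 7 genes lie within it.

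Within heated shoots the genes that rose split into those that were past their peak at 2 h and those that were not. No test stands behind these differences between groups; a step of 1 or more on the log2(FPKM + 1) scale was counted. From 10 to 20 min NAC6 and NAC5 were higher by 1.39 and 1.81, and none of the 7 was lower by that much, beside 2.09% of records higher. From 20 min to 1 h SNAC1, NAC6, NAC4 and ONAC045 were higher, by 1.03 to 2.59, beside 14.1% of records, of which ONAC045 is not one. From 1 h to 2 h SNAC1, NAC6 and NAC5 were lower by 1 or more, at -2.64, -1.87 and -1.69, beside 9.99% of records lower. Over that same hour NAC10 was higher by 2.17; it entered the records through its heated value at 2 h, so its step is not read against the 7.44% of records that were higher. From 2 h to 10 h SNAC1, NAC6, NAC5, NAC10 and NAC4 were lower, with NAC4 at -4.17 the furthest, beside 16.5% of records lower, a share against which NAC10 is again not read. SNAC3 moved by less than 1 at every step.

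The controls were not flat. From 10 min, in the 22 °C bath, to 20 min, after 10 min at 30 °C, SNAC1 was higher by 2.14 and NAC4 by 1.76 in control shoots, beside 3.57% of records higher by at least 1. NAC6 was higher by 0.83 over the same step. By 1 h SNAC1, NAC6 and NAC4 were lower again, at -2.84, -1.20 and -2.03, beside 4.17% of records lower. The brief maximum at 20 min was thus shared by 3 of the 7 genes, and ONAC045 and NAC5 also had their highest control value then, with steps of 0.40 and 0.23. From 1 h to 2 h no gene moved by 1 in controls, and from 2 h to 10 h only NAC4 did, at -1.42, beside 6.76% of records lower. From the lowest to the highest control group, NAC4 spanned 14.2 times, SNAC1 7.36 times and SNAC3 1.27 times.

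**Figure D4:**
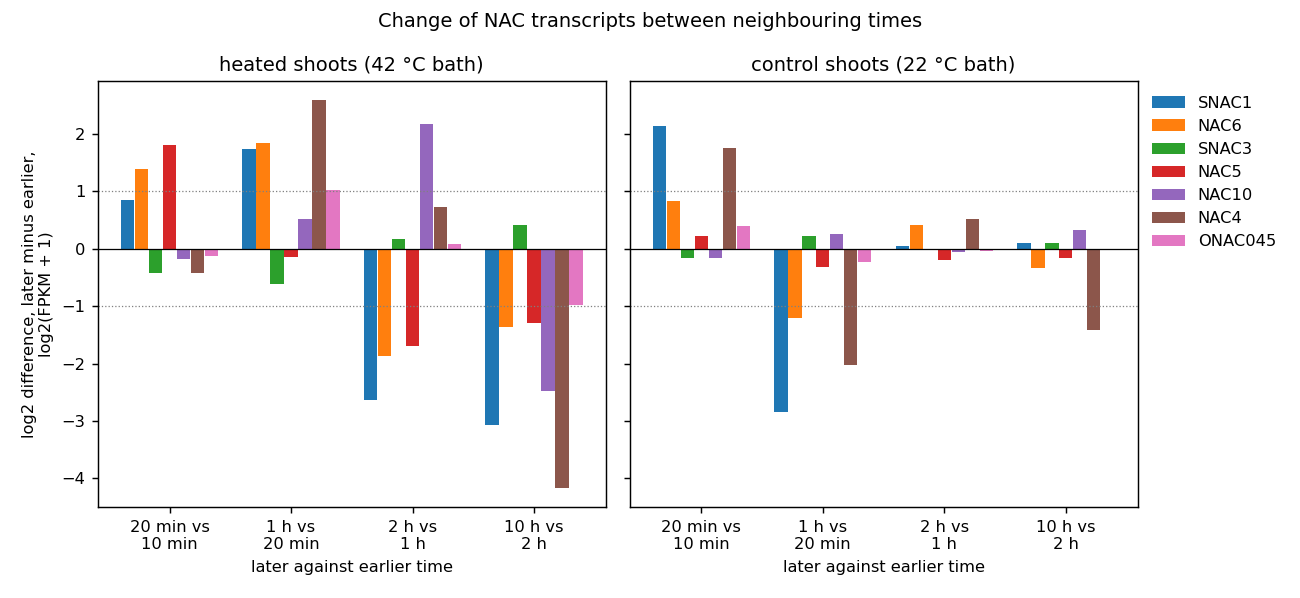
Log2 difference between neighbouring times, later minus earlier on the log2(FPKM + 1) scale, for each NAC gene (colours) in heated shoots (left) and control shoots (right), with dotted lines at 1 and -1. SNAC1 at 2.14 and NAC4 at 1.76 stand out in controls at 20 min, and NAC4 in heated shoots at 10 h, at -4.17, is the longest bar.

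The order of the levels, compared per transcript length, changed with heat only in part. In controls it ran from NAC6 through SNAC1 and NAC5 to SNAC3 at every time but 20 min, with NAC4, NAC10 and ONAC045 below. In heated shoots SNAC1 was above NAC6 at 10 min, 20 min, 1 h and 2 h, and below it again at 10 h. At 2 h NAC4 stood above NAC5, and NAC10 above SNAC3, in heated shoots. The highest gene exceeded the lowest by 1812 times in heated shoots and 183 times in controls at 1 h. Without values per library, neighbours in this order cannot be set against their spread.

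Over the 10 groups, on the log2(FPKM + 1) scale, the profiles of SNAC1, NAC6 and NAC5 were alike. Pearson's r was 0.88 between SNAC1 and NAC6, 0.88 between SNAC1 and NAC5, and 0.82 between NAC6 and NAC5. It was 0.88 between NAC4 and ONAC045, 0.75 between NAC10 and ONAC045, and for NAC6 0.75 with ONAC045 and 0.70 with NAC4. It was 0.04 between NAC5, which peaked at 20 min, and NAC10, which peaked at 2 h. SNAC3 had a negative r with each of the other 6 genes, from -0.88 with NAC6 to -0.51 with NAC5. The points are single group values that share the libraries of 1 table, so these are descriptions.

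Other genes of the NAC family were taken from a list of 18 IDs, of which 14 had a mean of at least 1 FPKM. The list was written from background knowledge, with earlier results of these data known, and was not checked against an annotation. Of these 14, none was called higher and 2 were called lower at 10 min in the authors' deposited table, beside 2.16% of all records lower. At 20 min none was higher and 4 were lower, beside 5.82% of records lower, in the authors' deposited table. At 1 h 2 were called higher and 1 lower, beside 10.9% and 8.12% of records, in the authors' deposited table. At 2 h 1 was called higher and 2 lower, beside 10.8% and 6.35% of records, in the authors' deposited table. The ID called higher at 2 h, OS12G0123700, passed the filter through that heated value alone, with a mean of 1.41 FPKM with it and 0.938 FPKM without it, so its call is not read against the share. At 10 h none was higher and 1 was lower, beside 1.64% of records lower, in the authors' deposited table. The median log2 ratio of the 14 was 0.29 at 1 h and -0.26 at 2 h, where that of all records was -0.065 and 0. Without OS12G0123700 the median of the 13 IDs left was 0.25 at 1 h and -0.31 at 2 h. OS01G0261200 had the largest ratio at 1 h, with 70.1 FPKM in heated shoots and 23.0 FPKM in controls and a printed q of 0 in the authors' deposited table. OS06G0726300 was called lower at 20 min, 1 h and 2 h in that table of the authors, with 0.83 FPKM in heated shoots and 5.83 FPKM in controls at 2 h. Like NAC4, OS07G0225300 was lower at 20 min, at 21.01 FPKM in heated shoots and 49.6 FPKM in controls, and higher at 1 h, at 32.2 FPKM in heated shoots and 17.7 FPKM in controls, both called in the authors' deposited table. Unlike NAC4, it was also called lower at 10 min, at 19.9 FPKM in heated shoots and 35.9 FPKM in controls. It was not called at 2 h, where NAC4 was called higher.

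Several NAC factors act with abscisic acid, and 10 IDs of that response were listed in the same way, again with earlier results known. They were basic leucine zipper factors, late embryogenesis abundant proteins and dehydrins, and 1 gene known as a target of SNAC1. The shares of all records stand beside the counts below as description only. Of the 9 with a mean of at least 1 FPKM, the authors' deposited table called 1 higher at 10 min and 1 at 20 min, beside 1.49% and 3.22% of all records. It called 5 higher at 1 h and 5 at 2 h, beside 10.9% and 10.8%, and 1 at 10 h, beside 2.65%, and none lower at any of the 5 times, in the authors' deposited table. Without their heated values at 1 h and 2 h, OS11G0454200, one of the 5 called at both times, had a mean of 0.756 FPKM and OS11G0453900, which was not called, one of 0.255 FPKM, so these IDs passed the filter through the heated values and are not read against the shares. Of the 7 IDs left, 4 were called higher at 1 h and 4 at 2 h in the authors' deposited table. The median of these 7 on the log2 scale was 1.81 at 1 h and then 1.78 at 2 h. OS03G0230300 was the ID called at the same 4 times as SNAC1 in the authors' deposited table. It stood at 330 FPKM in heated shoots and 12.3 FPKM in controls at 1 h, and at 261 FPKM in heated shoots and 7.55 FPKM in controls at 2 h. OS05G0542500 was highest at 2 h, with 382 FPKM in heated shoots and 2.49 FPKM in controls, and was still called at 10 h in the authors' deposited table, with 12.4 FPKM in heated shoots and 4.34 FPKM in controls. OS11G0454300 had 30.9 FPKM in heated shoots and 3.84 FPKM in controls at 1 h.

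**Figure D5:**
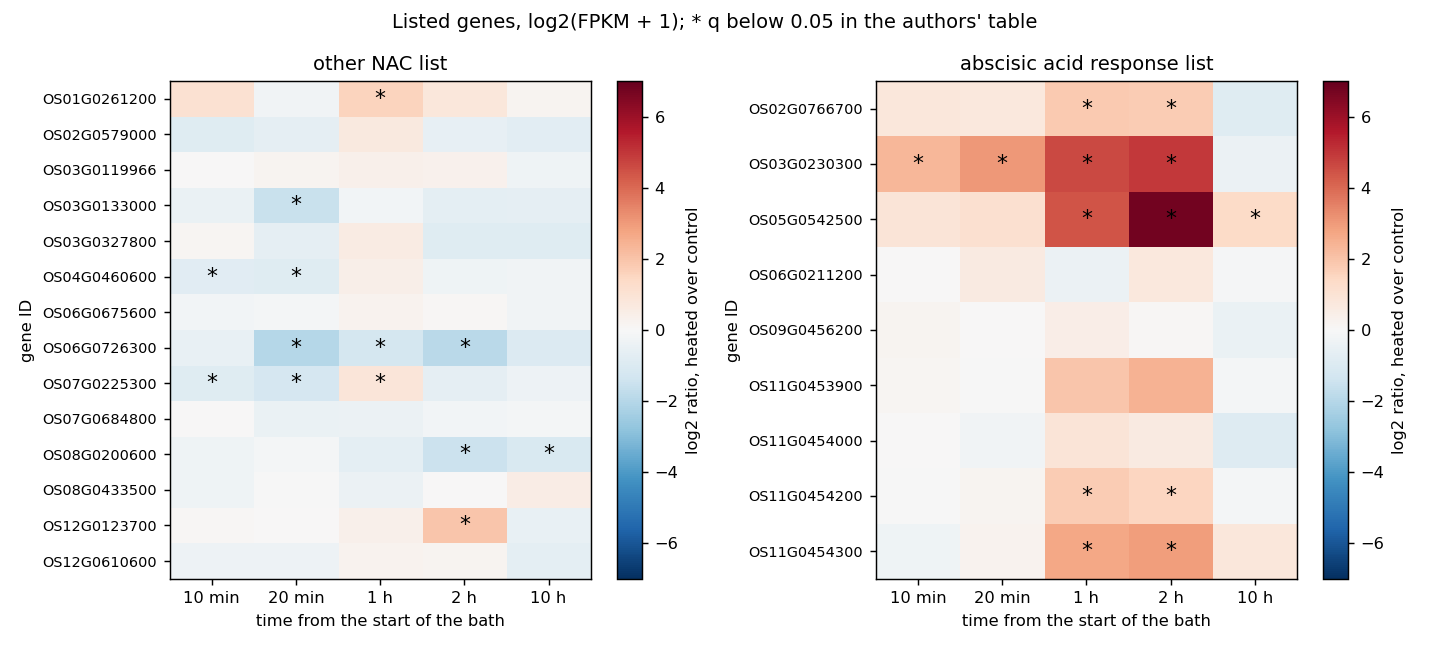
Log2 ratio of heated to control shoots, on the log2(FPKM + 1) scale, of the 14 other NAC IDs (left) and the 9 abscisic acid response IDs (right) whose mean reached 1 FPKM, by time, with a star where q was below 0.05 in the authors' deposited table. The right panel has 5 stars at 1 h and 5 at 2 h, all in red cells, and the left panel has 3 at each of these times, in both directions.

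For each gene the 2 records with the highest Pearson's r over the 10 groups were also taken, with the 7 genes themselves left out. Each is the top of 24219 values, a choice that itself favours a high r. The records were OS06G0143400 and OS06G0715400 for SNAC1 (both r = 0.97), OS03G0727900 and OS03G0187550 for NAC6 (both 0.97), and OS05G0343400 and OS04G0677400 for NAC5 (both 0.98). For SNAC3 they were OS01G0556650 (0.97) and OS05G0367900 (0.96), and for NAC4 OS01G0908700 (0.96) and OS12G0554500 (0.95). OS03G0638400 (0.99) and OS07G0508000 (0.98) were nearest to NAC10, and OS06G0166900 and OS06G0301100 (both 0.98) to ONAC045. OS03G0638400 stood at 8.57 FPKM in heated shoots at 2 h and at or below 0.71 FPKM elsewhere. OS06G0301100 stood at 13.8 FPKM at 1 h and 8.56 FPKM at 2 h in heated shoots, and at or below 1.47 FPKM elsewhere. OS05G0343400 stood at 5.6 FPKM at 20 min and 5.54 FPKM at 1 h in heated shoots, and at or below 1.74 FPKM elsewhere. OS03G0187550 stood at 2.71 FPKM at 20 min, 7.3 FPKM at 1 h and 2.39 FPKM at 2 h in heated shoots. In controls at 20 min it stood at 2.46 FPKM, and elsewhere at or below 0.69 FPKM. These records passed the filter through those heated values, so their likeness is not read as a result. Without the 2 groups in which the gene lay farthest from its median, all 14 values of r were lower. They ranged from 0.59 and 0.72 for NAC10 to 0.96 for OS06G0715400 with SNAC1. OS06G0143400 followed SNAC1 in heated shoots with 7.04 FPKM at 10 min, 14.0 FPKM at 20 min, 30.9 FPKM at 1 h, 5.06 FPKM at 2 h and 0.29 FPKM at 10 h.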

How the data were processed

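RNA of 20 shoot libraries, 2 per treatment and time, was sequenced, and samples were grouped by the bath temperature and time in their titles. The submitters' processing notes name cutadapt, TopHat2, Cufflinks and the build IRGSP-1.0, without versions. The authors deposited FPKM with 1 value per group and, per the file headers, their log2 fold change and q-value for each time; q has 2 decimals, so a printed q of 0 is any value that rounds down to it; their test and use of strand are not given in the sources used here. Identical rows were taken as 1 record, rows at 0 in all groups (3368) left out, and 106 records dropped in which the deposited fold change and the FPKM values, where both reached 1, differed by over 0.1 on the log2 scale. No p-value was computed here: the limma fit planned for values per library had no such values. For each gene the row of highest mean was used. Python 3.11.15, numpy 2.4.6 and pandas 2.3.3 computed ratios, counts and correlations, which were tested on simulated data. The genes and lists were chosen with earlier results of these data known. Named were all 7 genes, 2 like records for each, and from each list the 3 called IDs with the largest ratio at 1 h; further IDs were chosen after their values were seen. The gene name table at hand (assembly ASM3414082v1) listed 4 of the 7 names among its synonyms and 0 of the table's gene IDs. Positions, promoter motifs and proteins were not analysed here. Alternatives were another q threshold, pseudocount, filter, scaling, summed rows and the authors' fold change; scaling to summed FPKM was added after seeing the data.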

Additional observations from a re-analysis of the deposited data

Results flagged for a closer look

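NAC4 was called in opposite directions at different times in the authors' deposited table: its log2 ratio was -2.12 at 20 min, and 2.69 at 2 h, the largest of its higher calls. At 20 min heated shoots had 2.46 FPKM and controls 14.1 FPKM, and at 2 h heated shoots had 33.5 FPKM and controls 4.33 FPKM. The difference between the times was not tested, since the table holds no value per library.

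The ID of NAC6 has a second row that no comparison above used, and its signal was above that in controls in heated shoots from 20 min to 10 h, but below it at 10 min, with no call in the authors' deposited table. At 1 h this row stood at 145.19 FPKM in heated shoots and 9.66 FPKM in controls, with q = 0.75 in the authors' deposited table, although the log2 fold change printed there, 3.91, was larger than the 3.64 of the main row, which was called. At 20 min it stood at 76.6 FPKM in heated shoots and 22.2 FPKM in controls, with q = 0.85 in the authors' deposited table. At 2 h it stood at 39.5 FPKM in heated shoots and 15.6 FPKM in controls, and at 10 h at 14.02 FPKM in heated shoots and 7.08 FPKM in controls. At 10 min it stood at 14.25 FPKM in heated shoots and 22.1 FPKM in controls, with q = 0.88 in the authors' deposited table.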

How the results depend on the processing

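No paired analysis was possible because the table has 1 column per group and carries no replicate number; leaving out each replicate was not run for the same reason. Across 35 log2 ratios and 5 alternatives, 172 of 175 values kept their sign. The 3 exceptions were not called: NAC6 at 10 min was -0.058 with its rows summed and -0.042 as a share of summed FPKM, and SNAC3 at 20 min was -0.11 as a share of summed FPKM. That last scaling, added after seeing the data, moved the median of all records to -0.49 at 1 h, from -0.065 as deposited, and moved ratios of the 7 genes by up to 0.52. Since q has 2 decimals, only a printed q of 0 counts as below 0.01 here and in the counts that follow. With that cut in the authors' deposited table, 5 of the 7 genes were called at 1 h and 5 at 2 h. ONAC045 was lost at 1 h, where its printed q of 0.01 may itself lie below 0.01, and SNAC3 and NAC5 were lost at 2 h. Of the other NAC list 0 were then called at 10 min and 1 at 1 h, against 2 and 3. Over all records q below 0.01 left 482 of 884 calls at 10 min, 1186 of 2190 at 20 min, 2966 of 4608 at 1 h, 2638 of 4148 at 2 h and 414 of 1040 at 10 h; with no filter on low values 1423 were called at 10 min. By Spearman's rho 1 of the 14 like records stayed among the 2 highest, and without the 2 farthest groups 0 did. As a share of summed FPKM the steps of 1 or more in heated shoots lost ONAC045 from 20 min to 1 h (0.83) and gained NAC4 from 1 h to 2 h (1.32) and ONAC045 from 2 h to 10 h (-1.13, and -1.78 with a pseudocount of 0.1); no other step crossed 1 under these alternatives. Low FPKM limits NAC10 and ONAC045, whose depth is unknown.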

Other observations

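Of the other NAC list, OS12G0123700 had a profile with the same single maximum as NAC10. Its ID is of chromosome 12, which carries a near copy of the part of chromosome 11 that holds NAC10. Whether reads that fit both chromosomes entered both profiles was not tested, so the likeness is not read as that of separate genes. OS12G0123700 also had low values outside its maximum. It stood at 5.62 FPKM in heated shoots and 0.73 FPKM in controls at 2 h, with a printed q of 0 in the authors' deposited table, and between 0.36 and 1.65 FPKM in the other 8 groups. OS08G0200600 was the only ID of that list called at 10 h in the authors' deposited table, with 8.68 FPKM in heated shoots and 19.4 FPKM in controls. Of the abscisic acid list, OS11G0453900 had 4.88 FPKM in heated shoots and 0.08 FPKM in controls at 2 h but was not called, with q = 0.42 in the authors' deposited table. At 1 h it had 3.78 FPKM in heated shoots and 0.24 FPKM in controls. Its printed q there was 0.05 in the authors' deposited table, which was not called but may lie below the threshold before rounding. OS12G0123700 and OS11G0453900 passed the filter on low values through heated values at 1 h and 2 h. These 3 IDs were chosen after their values were seen.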
